A study of Mus musculus with 4 samples.

Results

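The genes described here are the receptor Ahr, its partner Arnt, its repressor Ahrr and its target genes Tiparp and Cyp1b1, which were found by their symbols among the 53465 genes of the count table. All 5 genes were found, each on a single line of the table. The aryl hydrocarbon receptor was of interest because epigallocatechin-3-gallate (EGCG), the main catechin of green tea, is a reported antagonist of it. MDSCs are immature myeloid cells that build up in tumor-bearing hosts. They were sorted with beads against Gr-1 from spleens of male BALB/c mice, injected at 6 weeks of age with cells of the 4T1 mammary carcinoma line. The labels place the sacrifice on day 21, whereas the methods of the study give a shorter interval. Cells of both groups were cultured for 6 h, in control medium (2 libraries) or in medium with 5 μg/mL EGCG (2 libraries). No source used here says whether replicates came from separate mice or wells, so that p-values measure the spread between these libraries, which may be technical.

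AHR is a transcription factor of the bHLH-PAS family that waits in the cytosol, bound to chaperones such as HSP90 and p23. Upon binding a ligand, such as a dioxin, a dietary indole or the tryptophan metabolite kynurenine, it enters the nucleus, pairs with ARNT and binds xenobiotic response elements. Its best known targets encode cytochrome P450 enzymes of the CYP1 family, and others feed back on the receptor. AHRR competes with AHR for ARNT, and TIPARP, a mono-ADP-ribosyltransferase, modifies AHR and limits its activity. In myeloid cells the receptor is known to tune inflammatory gene expression.

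The start-site regions of the 3 target genes are shown because the receptor binds such elements in target promoters. Each run is 300 bases, with 250 before the RefSeq start site and 50 from it on, read along the gene (GRCm38.p6). Capitals mark the core of the xenobiotic response element, GCGTG, or its reverse complement CACGC, searched on both strands with overlaps allowed.
Ahrr, chr13:74292282-74292581, minus strand: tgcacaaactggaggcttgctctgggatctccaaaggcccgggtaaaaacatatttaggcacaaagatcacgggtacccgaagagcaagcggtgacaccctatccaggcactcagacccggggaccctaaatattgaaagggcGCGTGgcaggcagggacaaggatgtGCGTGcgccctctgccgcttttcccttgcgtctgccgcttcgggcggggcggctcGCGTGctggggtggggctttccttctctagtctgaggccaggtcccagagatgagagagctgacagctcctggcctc
Cyp1b1, chr17:79715012-79715311, minus strand: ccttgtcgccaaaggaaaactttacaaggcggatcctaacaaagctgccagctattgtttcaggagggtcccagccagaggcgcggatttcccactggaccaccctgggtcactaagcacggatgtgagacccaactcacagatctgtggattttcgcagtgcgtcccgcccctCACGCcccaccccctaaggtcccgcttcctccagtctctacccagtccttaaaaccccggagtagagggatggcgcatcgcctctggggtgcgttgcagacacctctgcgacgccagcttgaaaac
Tiparp, chr3:65528197-65528496, plus strand: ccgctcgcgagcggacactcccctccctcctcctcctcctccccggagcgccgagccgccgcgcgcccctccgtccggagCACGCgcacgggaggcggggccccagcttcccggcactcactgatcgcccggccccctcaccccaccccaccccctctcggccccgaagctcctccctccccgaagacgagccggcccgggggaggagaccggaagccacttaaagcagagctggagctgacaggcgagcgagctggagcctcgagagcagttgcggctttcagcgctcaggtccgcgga
The core occurred 3 times in the window of Ahrr, with first bases at positions -107, -82 and -27 from the start site. It occurred 1 time in that of Cyp1b1 (position -76) and 1 time in that of Tiparp (position -170). The window of Arnt also held 1 core, at position -29. Of 32851 RefSeq windows of this length, 32.4% held at least 1 core and 3.91% held at least 3. A match of these letters is a description of the window, and binding was not measured. No window was used for Ahr.

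The difference between EGCG and control was tested in edgeR (quasi-likelihood, p values adjusted by Benjamini-Hochberg over the 14682 genes with enough counts), and genes with an adjusted p under 0.05 are referred to as called. All 5 genes were tested, and 0 were called, while 20 genes (0.136% of those tested) were called lower and 2 genes (0.0136%) higher across the table. At an unadjusted p under 0.05, 2 of the 5 were lower, namely Ahrr and Cyp1b1, and 0 were higher, against 7.02% lower and 5.22% higher of all tested genes. The EGCG libraries lay below both control libraries for 3 of the 5 (Ahr, Ahrr and Cyp1b1) and above them for 0, against 21.2% and 21.5% of all tested genes. The median log2 fold change was -0.22 over the 5 genes and 0.0031 over all tested genes. DESeq2 gave no adjusted p for Ahr, Ahrr and Cyp1b1, owing to its own filter on low counts, so that only Arnt and Tiparp could be called with it, and neither was. Its unadjusted p values were 0.391 for Ahr, 0.000340 for Ahrr and 0.0168 for Cyp1b1. An exact two-sided permutation test cannot go below a p of 0.333 with 2 libraries per group and was not used.

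The total counts ran from 17767318 to 18390385 per library. Levels are given as CPM, counts divided by the TMM-adjusted library total and multiplied by 1000000. The libraries differed by more than counting noise, with a mean chi-square per gene of 6.85 between the control libraries and 6.65 between the EGCG libraries. It was 16.0 and 12.4 between control replicate 1 and the EGCG libraries, and 7.57 and 6.70 between control replicate 2 and the EGCG libraries, and results are therefore also given with a library left out. Markers of neutrophils, the main cells carrying Gr-1, summed to 58560 and 69980 CPM with control medium and 78970 and 69740 CPM with EGCG over 10 genes. Of these, 3 were lower and 7 higher with EGCG, S100a8 at an unadjusted p of 0.00657 (log2 fold change of 0.38), and 0 were called. EGCG replicate 1 had the highest sum. In these bulk samples, fewer cells of a type and less RNA per cell cannot be told apart.

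The receptor gene Ahr (ENSMUSG00000019256, chr12:35497974-35535038, GRCm38) was expressed at a low level. Its counts were 198 and 194 with control medium and 178 and 167 with EGCG. These are 10.8 and 10.9 CPM in the control group and 9.82 and 9.35 CPM in the EGCG treatment group, so that the groups did not overlap. The difference was small and was not called: the log2 fold change was -0.18 (standard error 0.14, 95% interval from -0.48 to 0.12), with an adjusted p of 0.658. The level with EGCG was 88.3% of control, and the interval spans a fold from 0.717 to 1.09. The exact Poisson intervals of the counts, from 143 to 194 in EGCG replicate 2 and from 168 to 223 in control replicate 2, overlap. These intervals cover counting error only.
Arnt (ENSMUSG00000015522, chr3:95434388-95497240) encodes the partner that AHR shares with the hypoxia-inducible factors. It had 1532 and 1485 counts with control medium and 1464 and 1492 with EGCG. The corresponding levels were 83.9 and 83.1 CPM without EGCG and 80.7 and 83.5 CPM with it, and the groups overlapped. The log2 fold change was -0.02 (standard error 0.08, 95% interval from -0.19 to 0.14, adjusted p of 0.935), and the interval spans a fold from 0.878 to 1.10. With the length correction it was 0.07 and without EGCG replicate 1 it was 0.0031, so that Arnt has no stable sign. Per kilobase of exon, Arnt was at 10.1 to 10.5 CPM per kb and Ahr at 1.52 to 1.76 CPM per kb in the 4 libraries, and the levels of the partner and the receptor did not overlap.

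Ahrr (ENSMUSG00000021575, chr13:74211118-74292331), the feedback repressor, had the smallest p of the 5 genes. Its counts were 132 and 149 with control medium and 57 and 80 with EGCG. The levels were 7.23 and 8.34 CPM in the control group (7.78 ± 0.784, SD, n = 2) and 3.14 and 4.48 CPM in the EGCG treatment group (3.81 ± 0.944, SD, n = 2). Both EGCG libraries were below both control libraries, and the exact Poisson intervals of the nearest pair, from 63.4 to 99.6 counts in EGCG replicate 2 and from 110.4 to 156.5 in control replicate 1, did not meet. The log2 fold change was -1.03 (standard error 0.21, 95% interval from -1.47 to -0.59), that is 0.490 of the control level. Its unadjusted p of 0.000187 ranked 37 among the tested genes, and its adjusted p of 0.0717 did not pass the threshold.
The call of Ahrr was close to the threshold and moved with the setting. Scaling to library size only gave an adjusted p of 0.0133 and edgeR's robust fit one of 0.0379. A block for the replicate number gave 0.0514, a correction for exonic length 0.123 and leaving out the low-count filter 0.592. With a library left out, Ahrr was called without control replicate 1 (log2 fold change of -1.12, adjusted p of 0.0119), without control replicate 2 (-0.92, 0.0399) and without EGCG replicate 2 (-1.30, 0.000121). It was not called without EGCG replicate 1 (-0.79, 0.0702). Over the 11 alternatives its log2 fold change ran from -1.06 to -0.92, so that the size of the difference moved less than its call.

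Cyp1b1 (ENSMUSG00000024087, chr17:79701537-79715061), which encodes a cytochrome P450 that oxidizes estrogens and polycyclic aromatic hydrocarbons, had few counts. There were 24 and 53 counts with control medium and 11 and 18 with EGCG. The levels were 1.31 and 2.97 CPM in the control group and 0.607 and 1.01 CPM in the EGCG treatment group. The groups did not overlap, but control replicate 1 was nearer to EGCG replicate 2 than to control replicate 2. The exact Poisson intervals of control replicate 1 (15.4 to 35.7 counts) and EGCG replicate 2 (10.7 to 28.4 counts) overlap. The log2 fold change of -1.40 (standard error 0.44, 95% interval from -2.34 to -0.46) was the largest of the 5, with an unadjusted p of 0.00650 and an adjusted p of 0.228. It was -0.70 without control replicate 2 (adjusted p of 0.619) and -1.08 without EGCG replicate 1 (0.334). Without control replicate 1 it was -1.87 (adjusted p of 0.0314) and without EGCG replicate 2 it was -1.80 (0.0360), and in both of these Cyp1b1 was called.
Tiparp (ENSMUSG00000034640, chr3:65528410-65555518) encodes the other feedback regulator and had the highest counts of the 3 target genes. It had 865 and 1063 counts with control medium and 893 and 756 with EGCG. At 47.4 and 59.5 CPM in the control group and 49.2 and 42.3 CPM in the EGCG treatment group, EGCG replicate 1 lay above control replicate 1 and the groups overlapped. The log2 fold change was -0.22 (standard error 0.11, 95% interval from -0.46 to 0.02, adjusted p of 0.453). It moved with the library left out, from -0.05 without control replicate 2 to -0.37 without control replicate 1. Without EGCG replicate 1 it was -0.33 and without EGCG replicate 2 it was -0.12. The interval does not reach the log2 fold change of Ahrr or Cyp1b1. Its lower end (-0.462) does lie within the interval of Cyp1b1, whose upper end was -0.459. The difference between the genes was not tested.

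**Figure D1:**
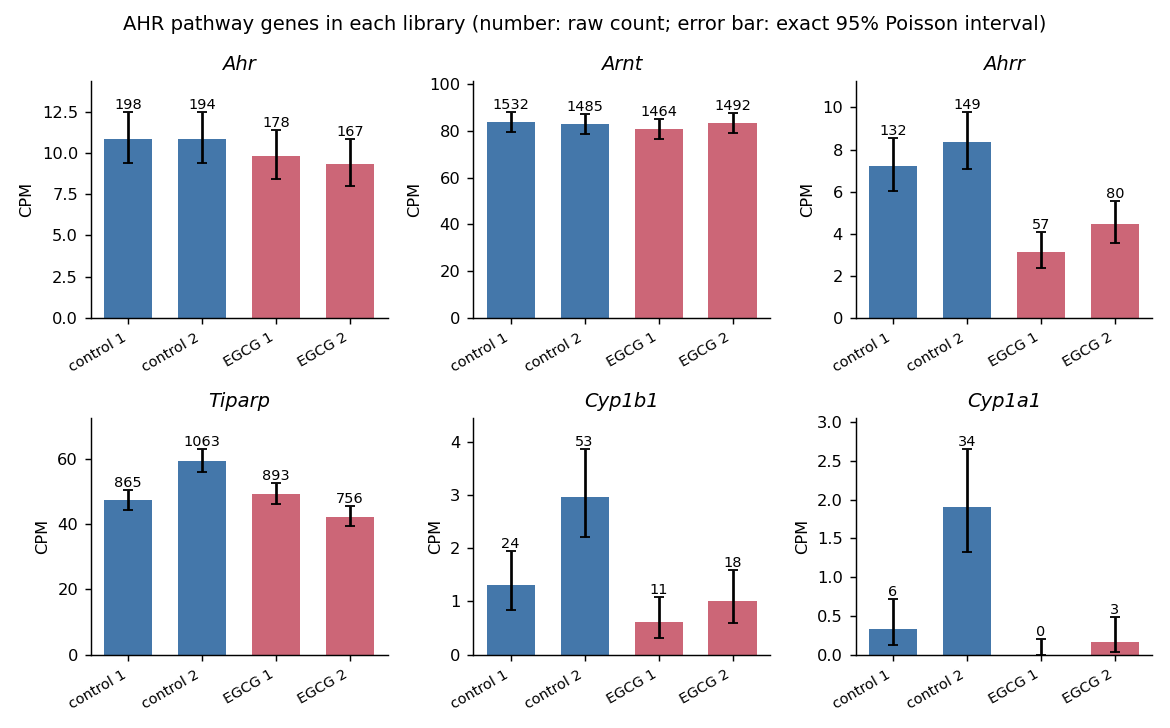
Level in CPM (vertical axis) of the receptor pathway genes and of Cyp1a1 in the 2 control (blue) and 2 EGCG (red) libraries, with the raw count above each bar and its exact 95% Poisson interval as error bar. Ahr and Arnt are nearly level, while Ahrr has 57 and 80 counts with EGCG against 132 and 149 without it, and control replicate 2 has the highest bar for Ahrr, Tiparp, Cyp1b1 and Cyp1a1.

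Cyp1a1, which encodes the best known AHR-induced enzyme, is not among the 5 genes, but it was described beside them from the list of other reported targets. Its counts were 6 and 34 with control medium and 0 and 3 with EGCG, and it was too low for the test. The control libraries together held 40 counts and the EGCG libraries 3, a ratio of 13.3 after scaling, with an exact 95% counting interval from 4.23 to 67.1. This ratio rests on control replicate 2: without it, 6 counts against 3 gave a ratio of 3.94 with an interval from 0.842 to 24.4. Ahrr, Cyp1b1 and Cyp1a1 ordered the 4 libraries in the same way, with EGCG replicate 1 lowest, then EGCG replicate 2, control replicate 1 and control replicate 2. This order was noticed after the values were seen, and 609 of the 14682 tested genes (4.15%) also had it. Any gene in this order has both EGCG libraries below both control libraries, and only 3119 tested genes had that. Ahr, Arnt and Tiparp each had another order.

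On the scale of CPM per kilobase of exon, averaged over the 4 libraries, the order of levels was Tiparp (11.4), Arnt (10.3), Ahr (1.66), Ahrr (0.614) and Cyp1b1 (0.252). The ranges of Tiparp (9.71 to 13.7) and Arnt (10.1 to 10.5) overlapped, and Tiparp was below Arnt in EGCG replicate 2 only, so that these neighbors cannot be ordered. The ranges of Ahrr (0.333 to 0.883) and Cyp1b1 (0.104 to 0.508) also overlapped, but within each of the 4 libraries Ahrr was above Cyp1b1. Ahr stood apart from both pairs. Since reads were counted without regard to strand, overlapping genes were also looked at. Exons of Ahr share 127 bases with the antisense lincRNA Gm48236, which had 0 to 3 counts, and exons of Tiparp share 223 bases with 4931440P22Rik on the other strand, which had 145 to 198 counts. The pseudogene Gm42672 lies in an intron of Arnt and had 0 to 3 counts. Of the 31-base words in their transcripts, 0% for Cyp1b1 and 4.48% for Tiparp also occur in transcripts of other genes, with the remaining genes between these values.

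Among the other reported targets of the receptor, 8 of 13 genes were tested, and 0 were called. Of the 8, 5 were lower and 3 higher with EGCG, with a median log2 fold change of -0.10, and 2 were lower at an unadjusted p under 0.05. Socs2, which encodes an inhibitor of cytokine signaling, had 147 and 163 counts with control medium and 90 and 106 with EGCG. Its groups did not overlap, and its log2 fold change was -0.66 (standard error 0.18, unadjusted p of 0.00224, adjusted p of 0.162). With a library left out, the log2 fold change of Socs2 ran from -0.79 to -0.53. The largest log2 fold change of the 8 was in the other direction, that of the cytochrome P450 gene Cyp2s1, which was named after its values were seen. It had 12 and 14 counts with control medium and 18 and 26 with EGCG (log2 fold change of 0.76, standard error 0.41, unadjusted p of 0.0850, adjusted p of 0.491), and its groups did not overlap. Xdh, which encodes xanthine dehydrogenase, had a log2 fold change of -0.17 (standard error 0.07, unadjusted p of 0.0324, adjusted p of 0.366). With the length correction Xdh was at -0.07 (unadjusted p of 0.373). Nqo1, a quinone reductase gene that NRF2 also controls, had 410 and 633 counts with control medium and 454 and 498 with EGCG, which overlapped (log2 fold change of -0.13, standard error 0.16). Without control replicate 2 the sign of Nqo1 turned to 0.24. Nfe2l2, which encodes NRF2 itself, was at a log2 fold change of 0.02 (standard error 0.07). Cyp1a2, Gsta1 and Gsta2 had 0 counts in every library, for which the exact Poisson interval reaches 3.69 counts per library.

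The receptor complex and its coactivators were represented by 9 genes, all of them tested, of which 0 were called. Their log2 fold changes ran from -0.15 to 0.27, with 4 genes lower and 3 higher in both EGCG libraries than in both control libraries, against 21.2% and 21.5% of all tested genes. Ptges3, which encodes the cochaperone p23, had 0.27 (standard error 0.10, unadjusted p of 0.0177, adjusted p of 0.307). Without EGCG replicate 2 it was at 0.15 (unadjusted p of 0.253). The chaperone gene Hsp90ab1 was at -0.03 (standard error 0.08).
Of the 16 other bHLH-PAS genes, 8 were tested and 0 were called, with a median log2 fold change of -0.08. Hif1a, the hypoxia-inducible partner of ARNT, had 3587 to 3798 counts and a log2 fold change of 0.06 (standard error 0.07). Epas1, which encodes the related HIF-2α, had 78 and 67 counts with control medium and 48 and 47 with EGCG (log2 fold change of -0.60, standard error 0.23, unadjusted p of 0.0202, adjusted p of 0.321). The genes of the circadian clock in this family, namely Clock, Arntl, Arntl2 and Per1 to Per3, had log2 fold changes from -0.28 to -0.03, and none of these 6 genes had an unadjusted p under 0.05. Among 11 targets of the HIF and ARNT pair, 5 were lower, 6 were higher and 0 were called, with a median of 0.04. Ldha, which encodes lactate dehydrogenase A, was at 0.22 (standard error 0.07, unadjusted p of 0.0105, adjusted p of 0.260). Bnip3, a mitophagy receptor gene, was at 0.27 (standard error 0.12, unadjusted p of 0.0353, adjusted p of 0.376).

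Endogenous ligands of the receptor arise from tryptophan. Of the 12 genes for tryptophan uptake and the kynurenine route, 8 were tested and 0 were called, 2 being lower and 6 higher with a median log2 fold change of 0.09. Ido1, which encodes an enzyme that opens the tryptophan ring, had 0 to 3 counts per library, and Il4i1, an amino acid oxidase that also yields AHR ligands, had 2 to 6. Slc7a5, which encodes a tryptophan and kynurenine transporter, had 858 to 1006 counts and a log2 fold change of 0.01 (standard error 0.10). Haao, an enzyme gene further down the route, was at 0.23 (standard error 0.10, unadjusted p of 0.0313, adjusted p of 0.363).

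**Figure D2:**
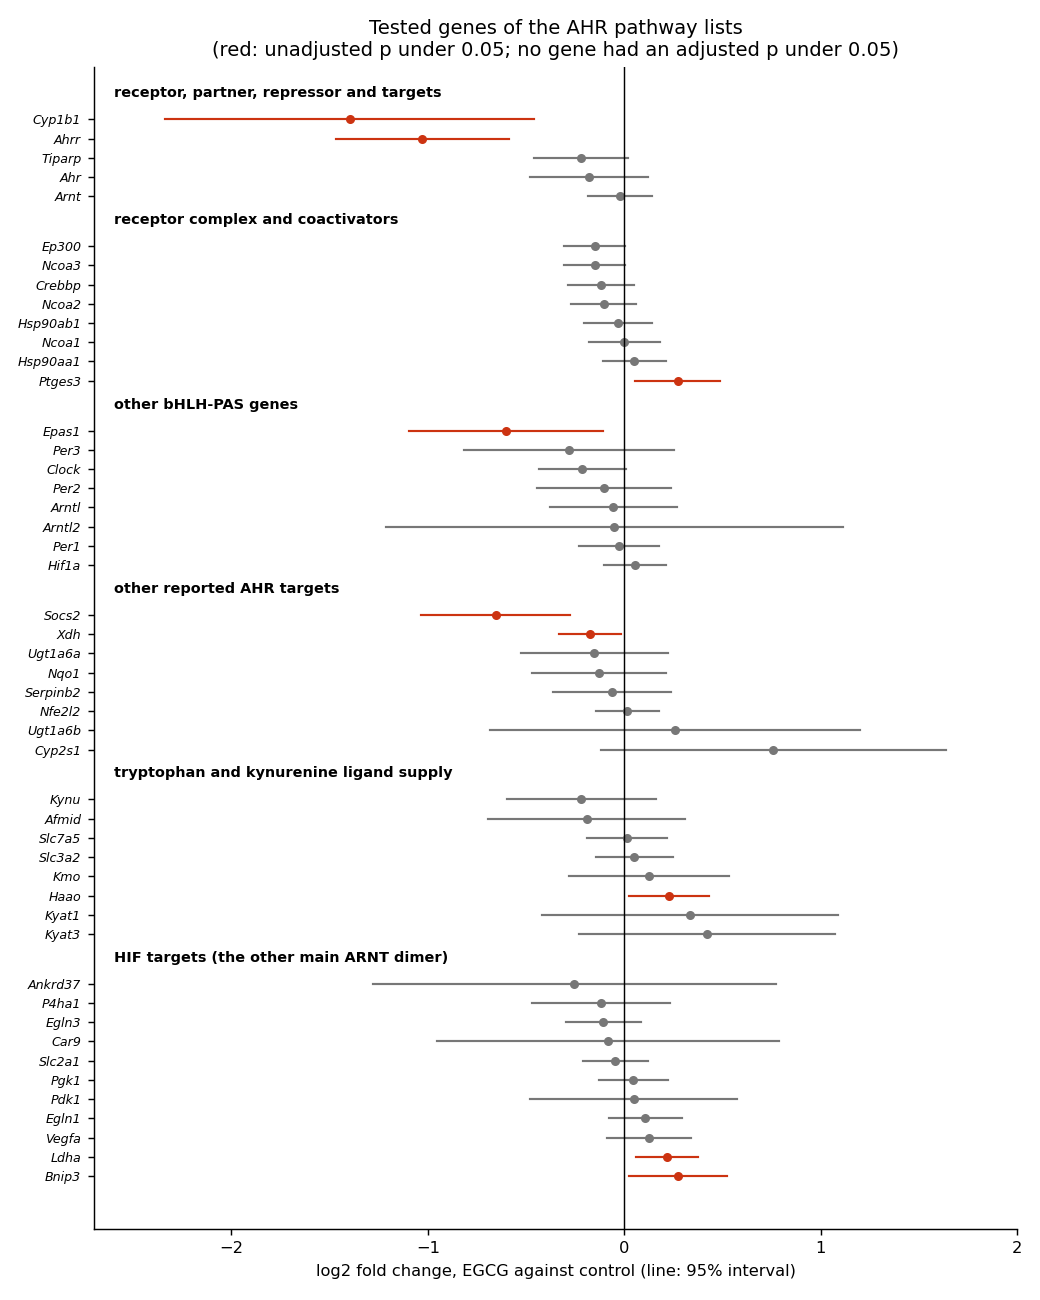
Log2 fold change of EGCG against control (horizontal axis, with its 95% interval) for tested genes of the pathway lists (1 gene of the receptor complex is not drawn), in red where the unadjusted p was under 0.05. Cyp1b1 (-1.40) and Ahrr (-1.03) lie farthest to the left of all genes shown, Ahr and Arnt lie near 0, and 0 genes had an adjusted p under 0.05.

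The sort could also have held other cells that express these genes, and marker levels moved in part with the same libraries. The 5 endothelial markers summed to 113.9 and 126.0 CPM with control medium and 94.2 and 98.6 CPM with EGCG. Of these, 4 were tested, all 4 were lower at an unadjusted p under 0.05 and 0 were called. The sum was carried by Pecam1, which myeloid cells also express, at 100 and 111 CPM without EGCG and 87.3 and 89.0 CPM with it (log2 fold change of -0.26). The less abundant markers had larger differences. Cdh5, which encodes VE-cadherin, was at 6.90 and 6.38 CPM without EGCG and 3.25 and 4.03 CPM with it (log2 fold change of -0.87, standard error 0.20, adjusted p of 0.103). The receptor genes Kdr and Tek had log2 fold changes of -0.75 (standard error 0.23) and -1.11 (standard error 0.48). The 95% interval of Tek ran from -2.13 to -0.08, and these markers were named after their values were seen. Emcn was too low for the test, with 1 and 2 counts without EGCG and 5 and 0 with it. The 7 macrophage markers summed to 389.8 and 388.2 CPM without EGCG and 303.4 and 320.7 CPM with it, with all 7 lower, 4 of them at an unadjusted p under 0.05, and 0 called. Adgre1 made up the largest part of this sum (log2 fold change of -0.27), and Mrc1 (-0.63, standard error 0.14) and Cd5l (-0.59, standard error 0.14) differed more. Of 5 stromal markers, 1 was tested, and the sum was 3.40 CPM in control replicate 1, 0.728 CPM in control replicate 2 and 0.938 and 1.18 CPM in the EGCG libraries, with Col1a1 and Dcn at 0 in some libraries.
The 5 monocyte markers summed to 1006 and 970.9 CPM with control medium and 922.6 and 920.8 CPM with EGCG, with 4 of 5 lower and F13a1 lower at an unadjusted p of 0.00258. The markers of NK and innate lymphoid cells summed to 60.0 and 53.7 CPM without EGCG and 49.4 and 51.7 CPM with it. This sum was carried by Il7r (log2 fold change of -0.22), while the other 2 tested markers, Klrk1 (0.24) and Gzma (0.31), had the opposite sign. The 5 dendritic cell markers summed to 11.2 and 10.1 CPM without EGCG and 10.1 and 9.74 CPM with it, and 4 of 5 were lower. Among them Xcr1 had 16 and 11 counts without EGCG and 5 and 7 with it (log2 fold change of -1.15, standard error 0.53, unadjusted p of 0.0480). B cell markers summed to 349.1 and 368.8 CPM without EGCG and 396.9 and 361.7 CPM with it. Of these, 1 was lower and 4 were higher, Ms4a1 at an unadjusted p of 0.0238 (log2 fold change of 0.27). T cell markers summed to 87.2 and 100.7 CPM without EGCG and 104.2 and 104.1 CPM with it. All 5 had a fold change above 0, with 0 at an unadjusted p under 0.05. Erythroid markers summed to 147.3 and 186.8 CPM without EGCG and 176.7 and 200 CPM with it, which overlapped. All 5 of these also had a fold change above 0, Hbb-bs at an unadjusted p of 0.0448 (log2 fold change of 0.22). The markers of basophils and mast cells summed to between 172.8 and 199.2 CPM. Here 3 were lower and 2 higher, Fcer1a at an unadjusted p of 0.0404 (log2 fold change of 0.37). None of the marker genes was called. The part of these cell types in the levels of Ahrr, Cyp1b1 and Cyp1a1 was not tested.

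**Figure D3:**
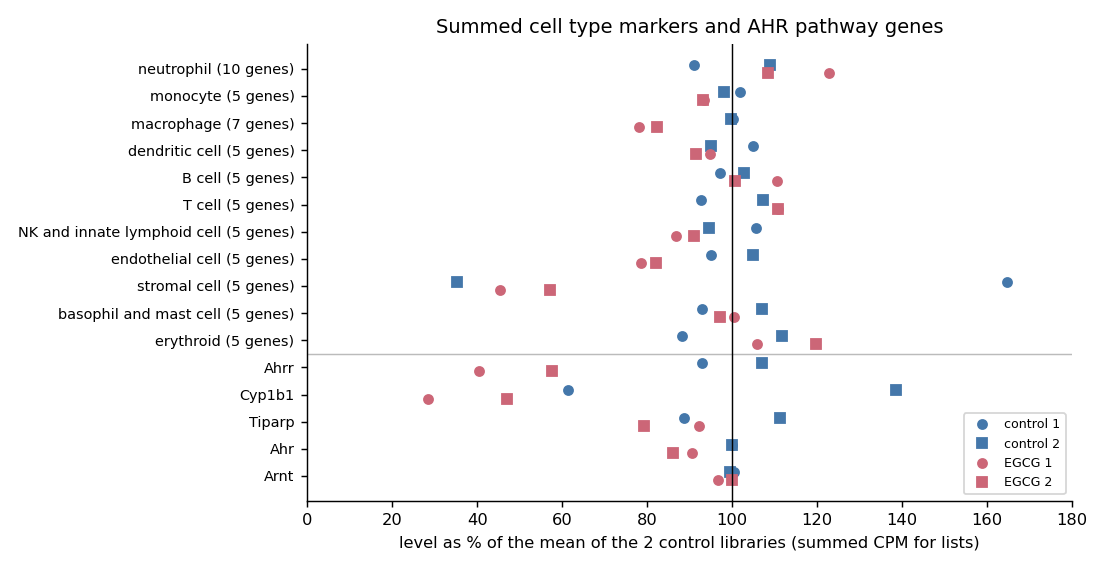
Level in each library as a percentage of the mean of the 2 control libraries (horizontal axis), for the summed CPM of each cell type marker list (upper rows) and for the receptor pathway genes (lower rows), with control in blue and EGCG in red. With EGCG, Ahrr lies between 40.4% and 57.5% of control and Arnt between 96.7% and 100%, and the endothelial and macrophage sums, between 78.0% and 82.4%, mostly show their abundant genes Pecam1 and Adgre1 and not the larger differences of Cdh5, Kdr, Tek, Mrc1 and Cd5l.

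For each of the 5 genes, the tested genes with the most similar pattern were taken as those with the highest Pearson correlation of log2 CPM over the 4 libraries, among 13625 genes with at least 10 counts in every library. For Ahr these were Ttc21a (0.99997) and Eea1 (0.99945), and for Arnt Rybp-ps (0.99987) and Ddx46 (0.99964). Gm10031 (0.99995) and Enoph1 (0.99989) were nearest to Ahrr, Tnfrsf9 (0.99962) and Diaph2 (0.99944) to Tiparp, and Oas3 (0.99982) and Arhgap32 (0.99919) to Cyp1b1. With 4 libraries, between 1.45% (Tiparp) and 3.50% (Ahr) of the genes reached a correlation of 0.95. The share of genes at the higher values listed here was not counted. A high correlation also did not mean a change of the same size. Gm10031 had a log2 fold change of -0.10 beside -1.03 for Ahrr, and Oas3, an interferon-induced oligoadenylate synthetase gene, had -0.39 (standard error 0.11, adjusted p of 0.171) beside -1.40 for Cyp1b1.

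**Figure D4:**
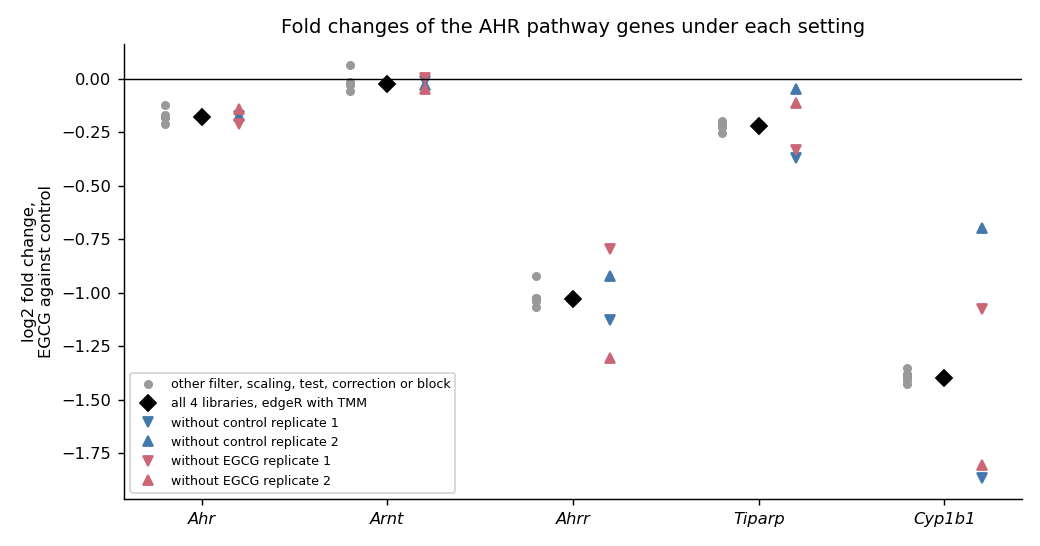
Log2 fold change of EGCG against control (vertical axis) for each receptor pathway gene with all 4 libraries (black diamond), under 11 other settings (grey) and with 1 library left out (triangles). Ahrr stays between -1.30 and -0.79, Cyp1b1 moves between -1.87 and -0.70 with the library left out, and Ahr stays between -0.21 and -0.12.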

How the data were processed

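The 4 libraries were grouped by their labels. Reads had been aligned by the authors with STAR 2.6.0c (GRCm38) and summarized per gene in featureCounts 1.6.2, on the Ensembl annotation (release 91) and with strand ignored, and the whole-number counts were deposited without normalization. There were 0 columns of other samples.

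Genes were filtered with filterByExpr (minimum count of 10), scaled by TMM and tested with edgeR 4.0.16 (glmQLFit in its legacy form, threshold 0.05, R 4.3.3). The standard error is the log2 fold change divided by the square root of F. The genes and lists were chosen with earlier results of these data known. Named genes are the 5 pathway genes, list genes with a p under 0.05, and others fixed by name (Hsp90ab1, Hif1a, Cyp1a1, Cyp1a2, Nqo1, Nfe2l2, Ido1, Il4i1 and Slc7a5). Single cell type markers were named after their values were seen. The result of 1 gene of the receptor complex list is not reported here, though the counts over the list include it. Log2 CPM for similar patterns used a prior count of 2. Positions and exonic lengths were taken from GENCODE M21 on GRCm38, where 53360 of the 53465 identifiers were found. Promoter windows came from RefSeq, for 4 of the 5 genes. Alternatives were other filters, scalings and tests (DESeq2 1.42.0), a length correction (loess with a span of 0.4), a replicate block and leaving out each library. The test was checked on simulated data. The reads themselves were not used. Figures were drawn with matplotlib 3.10.9 (Python 3.11.15).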

Additional observations from a re-analysis of the deposited data

How the results depend on the processing

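Over the 11 alternatives of filter, scaling, test, length correction and block, and with each of the 4 libraries left out, Ahr, Ahrr, Tiparp and Cyp1b1 stayed lower with EGCG. Arnt turned to 0.065 with the length correction, and ran from -0.047 to 0.0031 with a library left out. Ahrr was called with library size only (-1.06) and with the robust fit (-1.03), and ran from -1.30 to -0.79 with a library left out. Cyp1b1 ran from -1.87 to -0.70 in the same way. The number of called genes among the 5 was 1 with library size only, 1 with the robust fit, and 0 to 2 with a library left out. Among the other reported targets it was 0 to 2 with a library left out. This count holds Socs2 and also Cyp1a1, which was tested there only through the 34 counts of control replicate 2, so that its calls are not read as results. With 1 library in a group, that library is assumed to vary like those of the other group. The cause was not tested.

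Across all genes, 20 lower and 2 higher genes became 0 and 0 without a filter (1018 and 777 at an unadjusted p under 0.05), 135 and 16 with library size only, 49 and 14 with the robust fit, 50 and 14 with DESeq2, and 1 and 2 with the length correction. Upper-quartile scaling gave 9 lower genes, the stricter filter 1 higher gene, and edgeR's newer form 6 higher genes. With a library left out, 72 to 235 genes were lower and 5 to 119 higher. The replicate block gave 24 lower and 6 higher genes. The labels do not say whether libraries with the same replicate number belong together. The difference between the control libraries correlated with that between the EGCG libraries at 0.03 across genes. This value cannot show whether such libraries shared a mouse or a sort. Among the genes of the pathway lists the block changed no call. Among single genes, Nfe2l2 turned to -0.020 and Slc7a5 to -0.021 with library size only. With a library left out, Hsp90ab1 ran from -0.11 to 0.047, Nqo1 from -0.42 to 0.24, Nfe2l2 from -0.037 to 0.069 and Slc7a5 from -0.12 to 0.14. Socs2 was called without EGCG replicate 2 (-0.79). Over 14666 genes, which are no independent replicates, fold change and exonic length had a Spearman correlation of -0.286. Depth limits the values of Cyp1b1 and Cyp1a1, with 11 and 0 counts in their lowest library.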
